A study of Homo sapiens and Mus musculus with 21 samples.

Results

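The kinesin family genes are the motors and motor-like proteins whose symbols are KIF with a number and an optional letter, KIFC1 to KIFC3, or CENPE. They were taken by a rule on symbols, which was set with earlier results of these data known. Of the 29653 gene symbols in the human tables, 34 met the rule. The shRNA table listed 31 of them and the ciclopirox table all 34. The mouse gene list held 41 symbols of the same form.

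Bulk samples were of CUTLL1, a human cell line used as a model of T-ALL (acute leukemia of T-cell precursors), and single cells were of mouse thymus. In the shRNA experiment, cells carried a lentiviral hairpin against GFP (shGFP, the control) or the DHX15 hairpin shDHX15-1 or shDHX15-2, with 3 RNA-seq libraries in each group. In the drug experiment, cells received the solvent DMSO or 5 µM ciclopirox, an antifungal agent that chelates iron, again with 3 libraries each. RNA immunoprecipitation (RIP) with a DHX15 antibody (2 libraries), with IgG (1) and of input RNA (1) was summarised by the submitters as 1 peak list. The thymus libraries were 1 of total thymocytes from Dhx15 flox mice and 1 from Dhx15 KO mice, all 6 weeks old. The sources used here do not give the Cre driver, the deleted exons, the number of mice pooled, or how long cells were infected or treated. DHX15 is a DEAH-box RNA helicase that acts in the disassembly of spliceosomes and in ribosome assembly.

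Library totals recovered from the values were 59507040 to 62432503 reads in listed genes for the shRNA experiment and 32451469 to 37177509 for the drug experiment. DHX15 itself stood at 42.8, 44.1 and 43.2 RPKM (read density scaled by transcript length and library size) with shGFP, at 17.1, 17.3 and 16.5 with shDHX15-1, and at 16.1, 16.5 and 16.8 with shDHX15-2. The groups did not overlap. The 4 T-lineage markers with listed values were expressed, and PTCRA, which was also sought, was not listed. These 4 too differed from shGFP with each hairpin, except CD3D with shDHX15-1 (limma, Benjamini-Hochberg adjusted p = 0.222). The means with shGFP, shDHX15-1 and shDHX15-2 were 257, 269.5 and 303 RPKM for CD3D, 141, 203 and 209.8 for CD3E, 56.8, 102 and 143 for CD7, and 23.7, 11.5 and 15.6 for CD1A. CD79A, a B-lineage marker, had means of 24.4 RPKM with shGFP, 34.7 with shDHX15-1 and 58.6 with shDHX15-2, and CD68, a myeloid marker, had means of 2.35, 6.42 and 4.25. Whether these shifts bear on any kinesin value was not tested. In the drug experiment the first DMSO library stood apart. Its chi-square against the other two DMSO libraries was 42.3 and 43.4 per degree of freedom, whereas those 2 differed from each other by 3.47. The 3 ciclopirox libraries differed among themselves by 15.5, 15.5 and 30.2. Results without the first DMSO library are given beside or after the ciclopirox results, and calls that other single libraries decide are named there. The labels do not say that replicates came from separate cultures, and p-values therefore measure the spread between these libraries only.

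Kinesins are ATP-driven motors that walk along microtubules or take them apart. Mitotic kinesins build the bipolar spindle, move chromosomes to its equator and form the midzone from which the daughter cells separate. They are transcribed mainly in the G2 and M phases, and many are repressed through a cell cycle gene homology region next to their start sites. Transport kinesins carry vesicles, mitochondria and protein complexes along interphase microtubules with the help of light chains and adaptors, and a smaller set of family members works in the primary cilium and in Hedgehog signalling.

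The DHX15 RIP asked which RNAs associate with the helicase. The strongest kinesin peak lay in KIFC1, the gene of a minus-end directed motor that focuses spindle poles and clusters extra centrosomes. Of the 28 kinesin genes with at least 1 RPKM in at least 3 shRNA libraries and a RefSeq gene span, 8 held at least 1 peak (28.6%), beside 24.2% of 11362 genes chosen and counted in the same way. These were the mitotic genes KIF15, KIF18A, KIF18B, KIF22 and KIFC1, the transport genes KIF21B and KIFC2, and KIF7 of the Hedgehog pathway. The share is close to that of all genes. The fold enrichments and FDR values of peaks are the authors' deposited values, and no replicate values accompany them.

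KIFC1 held 2 peaks on the strand of the gene. The stronger one was 51 bases long (chr6:33391810-33391860 in GRCh38, plus strand), with a fold enrichment of 3.54 and an FDR of 6.74e-77, which ranked 2 by FDR among 4499 peaks. Its middle lay 12 bases after the transcription start that RefSeq lists. The weaker KIFC1 peak (chr6:33391660-33391785) had a fold enrichment of 1.52 and an FDR of 0.000436. Only KIFC1 and KIFC2 had a peak with a fold of at least 2, which 4.74% of all genes had. KIFC2, a minus-end directed transport kinesin, held a peak of 2.9998-fold (FDR 4.19e-10) on the minus strand. The peak reached to within 16 bases of the gene's upper coordinate and also covered FOXH1. The strand of KIFC2 was not listed in the sources used here. The peak was therefore counted for KIFC2 by overlap alone and may belong to FOXH1.

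The remaining kinesin peaks were between 1.51-fold and 1.803-fold enriched, beside a median of 1.65 over the whole list and a lowest listed value of 1.5001. KIF18A, which damps chromosome movements at the plus ends of kinetochore microtubules, had the highest of them (1.803-fold, FDR 1.29e-16, chr11:28021094-28021194, minus strand), 475 bases from the gene's lower coordinate and 87012 bases from its start. KIF18B, a regulator of astral microtubules, held a 1.63-fold peak of 51 bases (chr17:44931611-44931661, minus strand, FDR 1.78e-10). KIF22, a chromokinesin that pushes chromosome arms from the poles, had a peak of 451 bases at its start (chr16:29790843-29791293, plus strand, 1.55-fold, FDR 4.34e-06) and another of 51 bases near its other end (1.53-fold). The pair of peaks of KIF15, a spindle motor that works beside KIF11, also covered TMEM42, and 1 of them MIR564. KIF7 held 2 adjoining peaks (1.51-fold and 1.57-fold), and KIF21B 1 peak of 1.53-fold. Whether a peak lay in an exon or an intron was not analysed here.

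The start regions of KIFC1 and KIF22 are printed because they hold the kinesin peaks nearest to a listed transcription start. Each is the RefSeq window of 250 bases before to 50 bases after a listed start in GRCh38 (KIFC1 chr6:33391573-33391872 and KIF22 chr16:29790718-29791017, both on the plus strand), and capitals mark the bases inside a RIP peak.
KIFC1: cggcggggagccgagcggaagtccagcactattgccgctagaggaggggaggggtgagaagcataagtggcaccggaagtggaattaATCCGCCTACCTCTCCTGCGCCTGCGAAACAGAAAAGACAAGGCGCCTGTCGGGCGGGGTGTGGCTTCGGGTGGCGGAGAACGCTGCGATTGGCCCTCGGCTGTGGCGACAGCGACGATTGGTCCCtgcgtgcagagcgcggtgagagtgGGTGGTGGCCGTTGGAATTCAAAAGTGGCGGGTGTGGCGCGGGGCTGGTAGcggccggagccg
KIF22: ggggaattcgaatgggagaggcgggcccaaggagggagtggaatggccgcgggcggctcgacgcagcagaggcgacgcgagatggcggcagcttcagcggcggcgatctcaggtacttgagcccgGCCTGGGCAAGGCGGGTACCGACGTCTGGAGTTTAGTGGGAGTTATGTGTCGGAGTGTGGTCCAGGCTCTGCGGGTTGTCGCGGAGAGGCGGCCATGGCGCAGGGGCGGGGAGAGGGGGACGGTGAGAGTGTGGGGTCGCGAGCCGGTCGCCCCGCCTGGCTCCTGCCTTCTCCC
In KIFC1 the peaks covered 177 of the 300 bases and in KIF22 175. The 51 bases of the strong KIFC1 peak include 1 match to the cell cycle gene homology region (TTTGAA, here read on the opposite strand as TTCAAA), 4 bases after the start.

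Such matches were counted in the windows of 27 kinesin genes with a RefSeq window (7 had none in the table). Both strands were searched, and overlaps with the other motif were allowed. TTTGAA was found in 10 of 15 mitotic genes (66.7%), in 1 of 8 transport genes and in none of 4 cilium genes, beside 18.2% of 27305 human genes. The 10 were KIF11, KIF14, KIF15, KIF18A, KIF18B, KIF20B, KIF23, KIF4A, KIF4B and KIFC1, and their matches lay between 55 bases before and 30 bases after the start. In KIF5B, the only transport gene with a match, it lay 140 bases before the start. The CCAAT box (CCAAT) was found in 11 of the 15 mitotic genes (73.3%), in 3 of 8 transport genes and in 2 of 4 cilium genes, beside 39.7% of all genes. A match is a description of these letters and not a known binding site.

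The windows of KIF14, KIF20A and CENPE are shown as the 3 mitotic genes that differed most between ciclopirox and DMSO. Capitals mark every match to TTTGAA or CCAAT on either strand (KIF14 chr1:200620702-200621001, minus strand; KIF20A chr5:138178862-138179161, plus strand; CENPE chr4:103198294-103198593, minus strand).
KIF14: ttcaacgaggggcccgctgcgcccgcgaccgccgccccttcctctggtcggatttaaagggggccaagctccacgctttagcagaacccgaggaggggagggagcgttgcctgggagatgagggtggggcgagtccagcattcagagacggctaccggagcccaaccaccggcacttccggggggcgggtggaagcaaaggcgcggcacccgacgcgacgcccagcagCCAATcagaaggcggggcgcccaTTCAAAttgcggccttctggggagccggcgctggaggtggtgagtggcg
KIF20A: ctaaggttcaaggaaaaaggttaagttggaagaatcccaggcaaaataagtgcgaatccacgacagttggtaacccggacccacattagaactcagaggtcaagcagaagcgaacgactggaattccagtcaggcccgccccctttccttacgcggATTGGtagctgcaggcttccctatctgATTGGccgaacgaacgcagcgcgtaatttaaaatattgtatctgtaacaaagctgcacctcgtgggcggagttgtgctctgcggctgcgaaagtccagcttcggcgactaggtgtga
CENPE: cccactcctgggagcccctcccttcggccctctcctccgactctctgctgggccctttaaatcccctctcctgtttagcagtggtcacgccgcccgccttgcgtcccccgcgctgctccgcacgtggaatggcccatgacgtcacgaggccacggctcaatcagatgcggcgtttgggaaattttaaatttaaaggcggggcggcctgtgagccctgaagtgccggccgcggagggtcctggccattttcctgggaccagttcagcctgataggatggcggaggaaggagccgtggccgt
KIF14 had 1 match of each kind and KIF20A 2 matches to CCAAT, whereas the CENPE window held neither set of letters.

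The hairpin comparison asked which kinesin transcripts changed when DHX15 was depleted. CENPE was the member on which the hairpins differed most: it rose slightly with shDHX15-1 and fell from a mean of 7.97 RPKM to 2.40 with shDHX15-2. Spindle motors such as KIF15, KIF23 and KIFC1 rose with both hairpins and KIF14 fell with both. Of 9 transport kinesins at 1 RPKM or more in every group, 8 fell with shDHX15-2 and none rose. Over all 15022 tested genes, 30.1% fell and 35.6% rose with that hairpin. Both hairpins were compared with the same 3 shGFP libraries, so their results are set side by side and are not independent of each other.

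CENPE encodes a kinetochore motor that carries chromosomes to the spindle equator. It measured 7.45, 8.06 and 8.41 RPKM with shGFP, 9.43, 9.94 and 9.75 with shDHX15-1, and 2.60, 2.34 and 2.26 with shDHX15-2. The 3 groups did not overlap, and both hairpins stood on opposite sides of the control. On the log2(RPKM + 1) scale, which is used for all fold changes of this experiment and understates those of low genes, the change was 0.26 with shDHX15-1 (limma, Benjamini-Hochberg adjusted p = 0.00131) and -1.40 with shDHX15-2 (adjusted p = 5.89e-08, SE 0.050 for both). The direct contrast of shDHX15-2 with shDHX15-1 was -1.66 (95% interval -1.77 to -1.54, limma adjusted p = 4.99e-08). DHX15 RNA differed little between the hairpins in the same libraries, at a mean of 17.0 and 16.5 RPKM.

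CENPE was 1 of 4 members called with both hairpins in opposite directions, each higher with shDHX15-1 and lower with shDHX15-2. Of all 15022 tested genes, 5.47% were called in opposite directions and 3.42% in that order. KIF20B, a midzone motor of late mitosis, measured 10.05, 9.94 and 10.9 RPKM with shGFP, 14.5, 15.1 and 14.3 with shDHX15-1, and 6.56, 5.94 and 6.84 with shDHX15-2 (0.47 and -0.60 on the log2 scale). KIF13B, a transport kinesin that carries the scaffold DLG1, measured 3.77, 3.88 and 3.87, then 5.34, 5.76 and 5.65, then 3.11, 2.91 and 2.89 RPKM (0.44 and -0.29). KIF2C, a microtubule depolymerase of centromeres, measured 44.3, 44.9 and 44.1, then 48.2, 49.7 and 49.6, then 40.2, 39.8 and 41.0 RPKM (0.14 and -0.14). No library of one group overlapped another in these 3 genes. The KIF2C rise with shDHX15-1 did not pass the threshold when each library was centred on its median (0.04, adjusted p = 0.151) or with DESeq2 (adjusted p = 0.0918).

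**Figure D1:**
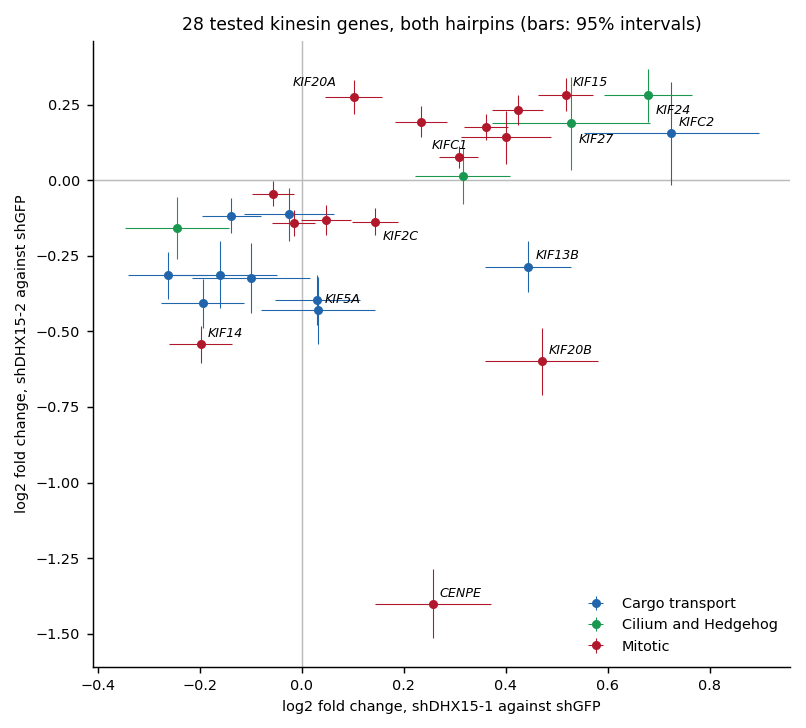
Log2 fold changes of the 28 tested kinesin genes, with shDHX15-1 against shGFP on the x axis and shDHX15-2 against shGFP on the y axis; colours give the role and bars the 95% intervals. CENPE lies alone at -1.40 on the y axis, with KIF20B and KIF13B also to the lower right, while the transport genes other than KIFC2 lie below 0 on the y axis.

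With shDHX15-1, 22 of the 28 members that passed the filter (at least 1 RPKM in at least 3 libraries) were called at an adjusted p under 0.05, beside 74.3% of all tested genes. Of these, 15 were higher and 7 lower, beside 45.4% and 28.9% of all genes. With shDHX15-2, 25 were called (65.7% of all genes), 9 higher and 16 lower (35.6% and 30.1%). Centring each library on its median moved the median log2 fold change of all genes from 0.09 to -0.02 with shDHX15-1. With shDHX15-2 it went from 0.03 to -0.01. The split was then 13 higher and 11 lower with shDHX15-1, beside 5058 and 5940 of all 15022 genes. For shDHX15-2 it was 7 higher and 17 lower, beside 4536 and 5224. KIF21A, KIF26B and KIFC3 did not pass the filter, at 0.0531 to 0.545 RPKM. KIF5A passed only through its shGFP and shDHX15-1 libraries, since its shDHX15-2 libraries were all under 1 RPKM, so its fold change is not read as a result. Without it, 24 of 27 members were called with shDHX15-2, 9 higher and 15 lower.

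In the direct contrast of the hairpins, 22 members were called, beside 61.1% of all genes. Of them 21 were lower with shDHX15-2 than with shDHX15-1 (37.9% of all genes) and 1, KIF20A, was higher (23.2%). The median over the 28 members was -0.23, beside -0.06 over all genes. Without KIF5A the counts were 20 lower and 1 higher of 27. With the libraries centred on their medians, 20 of the 28 were lower and 4 higher, beside 4133 lower and 4865 higher of all 15022 genes.

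Among the 14 mitotic genes, 10 rose and 2 fell with shDHX15-1 (median 0.24, beside 0.09 for all genes), and 7 rose and 6 fell with shDHX15-2 (median 0.02, beside 0.03). Over all genes, 45.4% rose and 28.9% fell with shDHX15-1, and 35.6% rose and 30.1% fell with shDHX15-2. KIFC1 measured 51.3, 49.8 and 51.2 RPKM with shGFP, 65.2, 65.6 and 65.7 with shDHX15-1, and 57.4, 58.5 and 56.6 with shDHX15-2. Both hairpin groups lay above the control without overlap, at log2 changes of 0.36 and 0.18 (limma adjusted p = 2.98e-07 and 4.56e-05). KIF15 rose from 22.4, 21.9 and 23.0 RPKM to 32.5, 32.6 and 32.5 with shDHX15-1 and to 27.3, 27.0 and 28.2 with shDHX15-2. Its log2 changes were 0.52 and 0.28, and its groups did not overlap. KIF23, the motor of the centralspindlin complex in the midzone, rose by 0.42 and 0.23, and KIF18A by 0.40 and 0.14.

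KIF20A, which brings Aurora B to the midzone, was the only member called higher with shDHX15-2 than with shDHX15-1. KIF9, KIF5B and KIF2A also had estimates above 0 in that contrast (0.09, 0.02 and 0.01) that did not pass (adjusted p = 0.125, 0.476 and 0.571). Its RPKM values were 19.3, 18.3 and 18.2 with shGFP, 19.9, 20.2 and 20.0 with shDHX15-1, and 22.7, 22.5 and 22.9 with shDHX15-2. The groups were ordered without overlap, and the changes from shGFP were 0.10 and 0.27 (difference 0.17, limma adjusted p = 0.000301). KIF14, a partner of citron kinase in cytokinesis, fell from 15.7, 16.3 and 16.5 RPKM to 13.8, 13.8 and 14.2 with shDHX15-1 and to 11.04, 10.7 and 10.5 with shDHX15-2. Both groups lay below the control, at -0.20 and -0.54. KIF22 rose by 0.31 and 0.08, although the rise with shDHX15-2 did not pass after median centring (adjusted p = 0.0996) or with DESeq2 (0.0626). KIF18B rose by 0.23 and 0.19, and its levels did not differ detectably between the hairpins (difference -0.04, 95% interval -0.09 to 0.01). KIF11, which slides spindle microtubules apart, changed by 0.05 with shDHX15-1 (adjusted p = 0.0730) and fell by 0.13 with shDHX15-2.

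**Figure D2:**
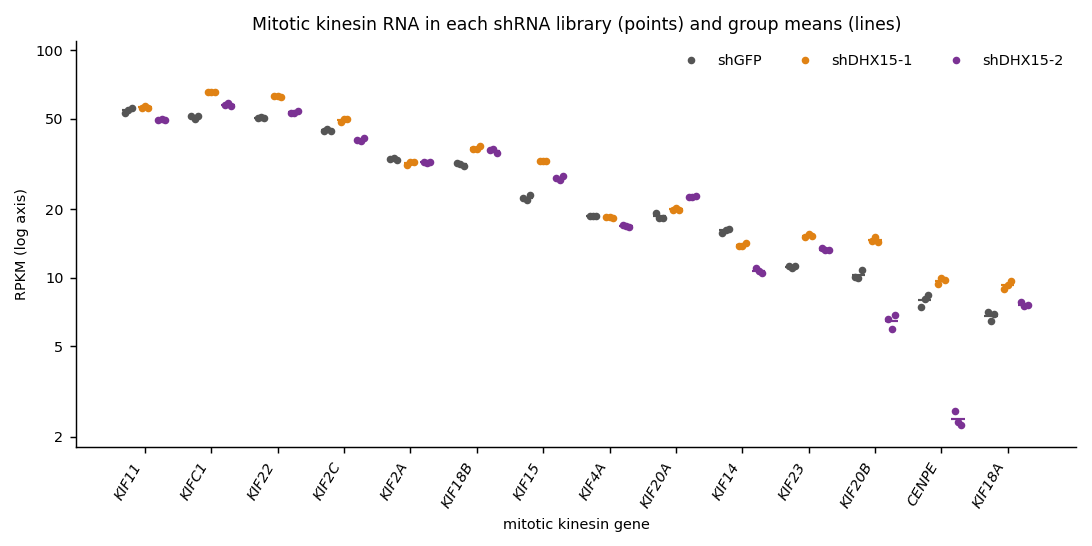
RPKM of the 14 mitotic kinesin genes (log axis) in each shRNA library, ordered by their shGFP mean; points are libraries and lines are group means. CENPE with shDHX15-2 sits at 2.26 to 2.60 RPKM, under every other point, and the KIF20B and KIF14 points of that group also lie below both other groups.

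Of the 9 transport genes other than KIF5A that were tested, 2 rose (KIF13B and KIFC2) and 4 fell with shDHX15-1 (median -0.10, beside 0.09 for all genes). With shDHX15-2 none rose and 8 fell (median -0.31, beside 0.03). The shares of all genes that rose and fell were 45.4% and 28.9% with shDHX15-1, and 35.6% and 30.1% with shDHX15-2. KIF5A, a conventional kinesin heavy chain best known from neurons, measured 1.64, 1.45 and 1.57 RPKM with shGFP, 1.56, 1.55 and 1.71 with shDHX15-1, and 0.936, 0.852 and 0.894 with shDHX15-2. It overlapped the control with shDHX15-1 and lay below it with shDHX15-2, which is given as a description only. KIF21B, a regulator of microtubule growth expressed in lymphocytes, fell from 15.6, 15.7 and 17.0 RPKM to 13.98, 13.8 and 14.01 and to 11.5, 12.1 and 12.1 (-0.19 and -0.41). KIF3A and KIF3B, the motor subunits of the heterotrimeric kinesin of intraflagellar transport, fell with both hairpins (KIF3A at -0.26 and -0.31, KIF3B at -0.16 and -0.31). KIF3B did not pass with shDHX15-1 when shGFP replicate 2 (adjusted p = 0.0550) or shDHX15-1 replicate 3 (0.0568) was left out.

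KIFC2 was the transport gene with the largest rise with shDHX15-1, and it was not called with shDHX15-2. It measured 8.52, 6.76 and 8.401 RPKM with shGFP, 13.6, 12.98 and 14.4 with shDHX15-1, and 8.50, 8.93 and 9.16 with shDHX15-2. All shDHX15-1 libraries lay above the control, and the shDHX15-2 libraries overlapped it (0.72, limma adjusted p = 2.18e-05, and 0.15, adjusted p = 0.0993). With edgeR on recovered reads the latter passed the threshold (0.15, adjusted p = 0.0419). KIF5B, the ubiquitous conventional kinesin heavy chain, stood at 32.5, 33.7 and 34.9 RPKM with shGFP and fell by 0.14 with shDHX15-1 and 0.12 with shDHX15-2.

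Of the 4 cilium and Hedgehog genes tested, 3 rose and 1 fell with shDHX15-1, beside 45.4% and 28.9% of all genes. With shDHX15-2, 2 rose and 1 fell, beside 35.6% and 30.1%. KIF24, which acts at centrioles to restrain cilium formation, rose from 3.46, 3.53 and 3.74 RPKM to 6.37, 6.39 and 6.21 with shDHX15-1 and to 4.68, 4.31 and 4.69 with shDHX15-2 (0.68 and 0.28). Its 3 groups did not overlap. KIF27, a relative of KIF7, rose by 0.53 and 0.19, KIF7 by 0.32 with shDHX15-1 (0.01 with shDHX15-2, adjusted p = 0.773), and KIF9, a motor of motile cilia, fell by 0.25 and 0.16.

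The genes that work with kinesins were read from lists of light chains and adaptors, of dynein and dynactin, and of mitotic partners. For the mean of both hairpins, 23 of 28 kinesins were called (72.9% of all genes), 11 higher and 12 lower (42.6% and 30.2%). The split was 11 and 16 with median centring, beside 4972 and 5785 of all 15022 genes, and 11 and 11 without KIF5A. Of 14 light chains and adaptors tested, 6 rose and 4 fell. PLEKHM1, a lysosomal adaptor, changed by -0.79 and SPAG9, a scaffold that binds kinesin light chains, by 0.47. Of 22 dynein and dynactin genes, 7 rose and 9 fell, with ACTR1B, an actin-related subunit of dynactin, at 0.59 and the dynein light chain DYNLRB1 at -0.52. The DYNLRB1 value was carried by shDHX15-1 (-0.99), since shDHX15-2 gave -0.05 (adjusted p = 0.187). Of 23 mitotic partners, 11 rose and 8 fell, with SPC24 of the kinetochore NDC80 complex at 0.50 and the mitotic kinase PLK1 at -0.39. In bulk RNA, fewer cells in mitosis and less RNA of a gene per cell cannot be told apart.

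The drug comparison asked how the same transcripts differed after ciclopirox. KIF20A, CENPE and KIF14 fell by 1.59 to 1.81 on the log2 scale, while KIFC2, KIF24 and most transport kinesins rose. Of the 31 members that passed the filter (a normalised count of at least 10 in at least 3 libraries), 21 were called, beside 48.5% of all tested genes. Of these, 12 were higher and 9 lower (23.5% and 25% of all genes). With median centring the split was 10 and 11, beside 3350 and 5011 of all 16825 genes. Without the first DMSO library, 24 were called, 12 in each direction, and over all genes 4482 were higher and 4573 lower. With all libraries the counts over all genes were 3956 and 4201. KIF17, KIF4B and KIF6 did not pass the filter. DHX15 had normalised counts of 14498, 16688 and 16311 with DMSO and 9218, 8967 and 10216 with ciclopirox (log2 change -0.74, limma adjusted p = 8.7e-05).

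Among 14 mitotic genes 1 rose and 8 fell, beside 23.5% and 25% of all genes. Their median was -0.33, beside -0.02 over all genes. KIF20A measured 2942, 2842 and 2683 normalised counts with DMSO and 774, 884 and 766 with ciclopirox. Its groups were far apart and its 3 DMSO libraries close together, and the log2 change was -1.81 (95% interval -2.03 to -1.58, limma adjusted p = 5.29e-07). CENPE measured 2959.7, 5563 and 5136 with DMSO and 1436, 1028 and 1572 with ciclopirox. KIF14 measured 2709, 4473 and 4376 against 1133, 1014 and 1692. In both genes the groups did not overlap, but the first DMSO library lay well below the other two. The changes were -1.73 for CENPE and -1.59 for KIF14 (limma adjusted p = 0.000116 and 0.00016), and -2.01 and -1.83 without that library.

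KIF20B measured 2665, 4102 and 4265 with DMSO and 2232, 1674 and 2751 with ciclopirox, so that 1 ciclopirox library lay above the lowest DMSO library. Its change was -0.73 (limma adjusted p = 0.0116), or -0.94 without the first DMSO library, and it did not pass without ciclopirox replicate 2 (-0.54, adjusted p = 0.0569). KIF23 fell without overlap from 2488, 2772 and 2831 to 1751, 1586 and 1697 (-0.68). KIF2A, a depolymerase of spindle poles, fell by 0.56 and KIF4A, a chromokinesin, by 0.29. KIF18A was called at -0.36 (adjusted p = 0.0420), a call that was lost with edgeR and in 5 of the 6 fits that left out a library, and kept without the first DMSO library (-0.46).

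KIF18B was the only mitotic gene that rose, from 7120.0, 6883 and 6544 to 8638, 8806 and 8123 (0.32, adjusted p = 0.00932; 0.28, adjusted p = 0.0543, without DMSO replicate 3). KIFC1 measured 6887, 5663 and 5675 with DMSO and 7127, 7429 and 6884 with ciclopirox. The highest DMSO library overlapped the lowest ciclopirox library, and the change of 0.24 did not pass (limma adjusted p = 0.0652), whereas it passed without that first DMSO library (0.33, adjusted p = 0.00258) and with edgeR (0.27, adjusted p = 0.0312). KIF11 (-0.30), KIF22 (-0.15), KIF2C (0.04) and KIF15 (0.17) were not called, and KIF15 passed only without ciclopirox replicate 2 (0.32, adjusted p = 0.0486).

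**Figure D3:**
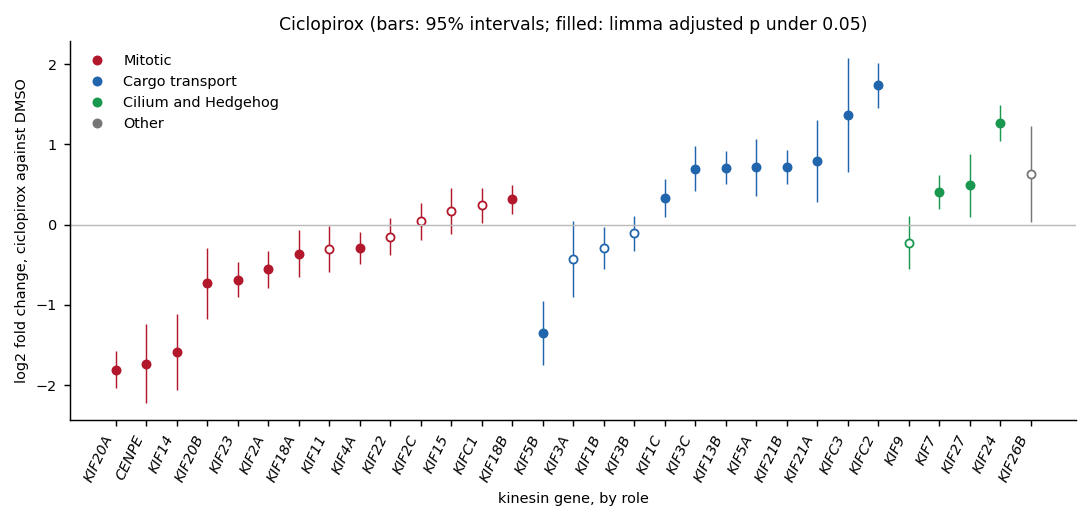
Log2 fold changes of normalised counts with ciclopirox against DMSO for the 31 kinesin genes that passed the filter, grouped by role and ordered by size, with 95% intervals; filled points passed the threshold. KIF20A (-1.81), CENPE (-1.73) and KIF14 (-1.59) are the lowest mitotic points, KIF5B (-1.35) is the lowest transport point, and KIFC2 (1.74) and KIF24 (1.26) are the highest of their groups.

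Of 12 transport genes tested, 8 rose and 1 fell (median 0.70), beside 23.5% and 25% of all genes. The 1 that fell was KIF5B, the most abundant transport kinesin per kilobase in the shGFP libraries, from 5483, 8368 and 8439 to 2833, 2359.9 and 3515 (-1.35, limma adjusted p = 0.000139; -1.55 without the first DMSO library). KIFC2 rose from 742, 632 and 656 to 2374, 2525 and 1907 (1.74, adjusted p = 2.78e-06). KIF21B rose from 7046, 6359 and 6218 to 10053, 11902 and 10445, and KIF13B from 1552, 1505 and 1381 to 2432, 2505 and 2326. None of these groups overlapped, and the log2 changes were 0.72 and 0.71. KIF5A rose by 0.72, KIF21A by 0.79 (from counts of 72 to 121), KIF3C by 0.70 and KIFC3, a minus-end directed kinesin with counts of 15 to 60, by 1.36. KIF21A did not pass without DMSO replicate 3 (adjusted p = 0.0556) or ciclopirox replicate 1 (0.0540). KIF1B, KIF3A and KIF3B were not called.

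Of the 4 cilium genes tested 3 rose. KIF24 went from 714, 659 and 711 to 1637, 1708 and 1664 with no overlap (1.26, adjusted p = 4.39e-06), KIF27 by 0.49 and KIF7 by 0.41. Among partner genes, 14 of 22 mitotic partners fell and 3 rose (median -0.53), with PLK1 at -2.70 and CCNB1, the cyclin of mitotic entry, at -2.36. Of 22 dynein and dynactin genes 9 fell and 4 rose, with the adaptor HOOK3 at -1.003 and the light chain DYNLL1 at -0.88. Of 17 light chains and adaptors 3 rose and 2 fell, with the mitochondrial adaptor TRAK1 at 1.79 and PLEKHM1 at -0.57. Beside these cilium and partner counts, 23.5% of all genes rose with ciclopirox and 25% fell.

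Without the first DMSO library, 9 mitotic genes fell and 2 rose (median -0.44). In that fit 8 transport genes rose and 3 fell (median 0.72), and 2 cilium genes rose. Of all 16825 genes, 4482 rose and 4573 fell, with a median of -0.01. The added transport falls were KIF3A (-0.59) and KIF1B (-0.39), the added mitotic fall was KIF11 (-0.42) and the added mitotic rise KIFC1. KIF27 was no longer called (0.42, limma adjusted p = 0.0647). KIF20A (-1.78), KIF23 (-0.74), KIF2A (-0.63) and KIF4A (-0.34) still fell. KIF18B (0.34), KIFC2 (1.8046), KIF21B (0.78), KIF13B (0.75), KIF5A (0.70), KIF21A (0.73), KIF3C (0.80), KIFC3 (1.44), KIF24 (1.29) and KIF7 (0.49) still rose. KIF22 (-0.05), KIF2C (0.14), KIF15 (0.09) and KIF3B (-0.09) were again not called. DHX15 stood at -0.80, PLK1 at -2.58, CCNB1 at -2.29, HOOK3 at -1.3002, DYNLL1 at -0.75, TRAK1 at 1.66 and PLEKHM1 at -0.50. Of the mitotic partners 15 fell and 4 rose, of dynein and dynactin genes 9 fell and 4 rose, and of light chains and adaptors 4 rose and 2 fell.

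The hairpin and drug experiments shared no libraries, and 28 members were tested in both. CENPE, KIF14, KIF2A, KIF4A and KIF5B were lower in both (the mean of both hairpins and ciclopirox), beside 17.8% of 10662 genes tested in both. KIF18B, KIF24, KIF27, KIF7 and KIFC2 were higher in both, beside 15.7%. KIF18A, KIF20A and KIF23 were higher after knockdown and lower with ciclopirox (6.43% of all genes), and KIF21B and KIF3C were lower after knockdown and higher with ciclopirox (3.12%), as was KIF5A, which was under 1 RPKM with shDHX15-2. Several of these places rest on 1 hairpin. With shDHX15-1, CENPE rose, and KIF4A (-0.02, adjusted p = 0.442) and KIF3C (-0.10, adjusted p = 0.101) were not called. With shDHX15-2, KIF2A (-0.04, adjusted p = 0.0553), KIF7 (0.01, adjusted p = 0.773) and KIFC2 (0.15, adjusted p = 0.0993) were not called.

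**Figure D4:**
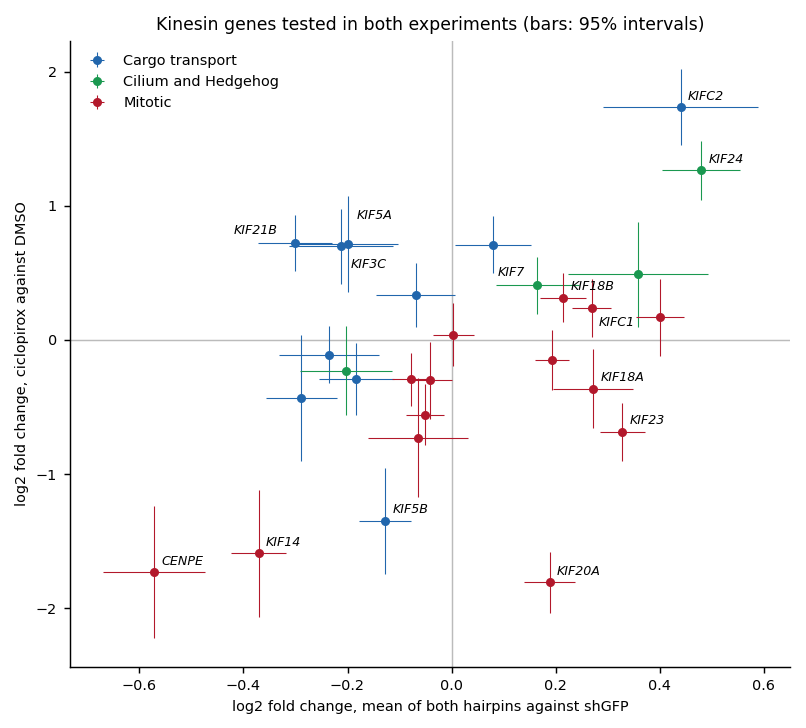
Log2 fold changes of the kinesin genes tested in both CUTLL1 experiments, with the mean of both hairpins against shGFP on the x axis and ciclopirox against DMSO on the y axis; colours give the role and bars the 95% intervals. KIF20A (0.19 and -1.81) and KIF23 (0.33 and -0.68) sit at the lower right, and KIF21B (-0.30 and 0.72) at the upper left.

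The thymus libraries held 9434 barcodes with a median of 3599 UMIs (unique molecule counts) in Dhx15 flox and 8484 with a median of 6083.5 in Dhx15 KO, and 17 barcode sequences occurred in both. With 1 library per genotype there is no test. Values are CPM (UMIs of a gene scaled to a fixed total of UMIs) with exact Poisson 95% intervals, which cover counting error only. Dhx15 stood at 180.6 CPM in flox and 100.3 in KO, a ratio of 0.556 (0.539 to 0.573). It is not known here whether the counted end of the transcript lies in the deleted part.

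Summed over 14 mitotic kinesins, the libraries held 594 (587 to 601) and 590.4 (585 to 596) CPM, a ratio of 0.994 (0.980 to 1.01). The 14 include Kif2b, which had no UMI, and leave out Kif4, the mouse counterpart of KIF4A; with Kif4 added, which was chosen after seeing the data, the ratio was 0.996 (0.982 to 1.01). As a mean over cells of each cell's own share, the ratio was 1.29, above 1. Transport kinesins summed to 562 in flox and 370.0 in KO (ratio 0.658, 0.648 to 0.669). Of 28 members with at least 100 UMIs over both libraries, 1 was at least 1.5-fold higher in KO and 5 at least 1.5-fold lower, beside 12.9% and 15.1% of 11858 genes with as many UMIs. All 6 were among the 12 transport genes, whose median ratio was 0.709, beside 1.08 for the 13 mitotic genes and 0.931 for all genes.

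The lowest ratios were in Kifc2 (3.85 and 1.75 CPM, 0.455), Kif1b, which carries mitochondria and vesicles (18.7 and 9.50, 0.509), Kif5b (348 and 218, 0.627), Kif3c (10.5 and 6.59, 0.628) and Kif21b (106 and 68.1, 0.642). All 5 are transport genes. The highest were in Kifc3 (2.01 and 3.54, 1.76), Kif24 (3.37 and 4.59, 1.36), Kif2c (22.5 and 27.3, 1.21), Kif3a (11.8 and 14.1, 1.19) and Kif14 (15.2 and 17.1, 1.13). Cenpe stood at 92.3 in flox and 80.2 in KO (0.869, 0.836 to 0.903) and Kifc1 at 18.6 and 20.5 (1.10, 1.02 to 1.198). Kif2b had no UMI in either library, and 12 members had 1 to 99 UMIs.

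The libraries differed in which cells they held. Cells were clustered without kinesin genes, which gave 29 clusters, named from fixed markers. Cluster 1, resting double positive-like (leading genes include Rag1), made up 38.5% of flox and 1.13% of KO barcodes, and cluster 3, with the same name, 14.7% and 1.27%. Cluster 2 made up 0.509% and 19.5% and cluster 5 0.265% and 12.97%, so that both were nearly confined to the KO library. Cluster 2 stays unnamed, although its resting double positive markers had a median fold of 2.45 over all other cells. That fold was 3.73 in cluster 1 and 2.87 in cluster 3. Cluster 4, DN2-3-like (Hes1, Il2ra), made up 1.17% and 13.5%. Cluster 13, G2-and-mitosis-like (Plk1, Ube2c, Hmmr), made up 0.996% and 4.69%, and cluster 18, with the same name (Cenpf, Cdc20, Ccnb1), 1.198% and 1.87%. Cluster 14 carried both mitotic genes and histone genes of S phase and is called by number (2.88% and 1.99%), and clusters 9 and 12 were S-phase-like. Clusters 8, 19 and 21 were led by mitochondrial genes at low UMI counts and stay unnamed.

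Within the cycling clusters the mitotic sum was somewhat lower in KO. It was 1690 CPM in flox and 1509 in KO in cluster 13 (ratio 0.893, 0.867 to 0.919), 2153 and 2026 in cluster 18 (0.941, 0.897 to 0.988), 2850.3 and 2659 in cluster 14 (0.933, 0.904 to 0.963), 787 and 621 in cluster 12 (0.790) and 431 and 352 in cluster 9 (0.818). In the transport sum the ratio was also below 1 in each of these clusters, at 0.905 (0.845 to 0.970) in cluster 13, 0.941 (0.849 to 1.04) in cluster 18, 0.949 (0.877 to 1.03) in cluster 14, 0.875 (0.809 to 0.948) in cluster 12 and 0.889 (0.824 to 0.960) in cluster 9. Among resting clusters the mitotic sum was 147 and 174 in cluster 1 (1.18, 0.860 to 1.59) and 159 and 306 in cluster 3 (1.92, 1.59 to 2.31). In cluster 11, with 46 KO cells, it was 169 and 108 (0.641, 0.443 to 0.899). Over the 14 clusters with at least 50 cells in both libraries, the ratio was below 1 in 10 for the mitotic sum and in 12 for the transport sum. No ratio over all genes was computed within clusters, so whether these values differ from those of other genes was not tested. Over the whole libraries the median ratio of all genes was 0.931, near several of these values. Of the mitotic kinesin UMIs of each library, cluster 13 gave 19.9% in flox and 38.5% in KO, cluster 14 36.0% and 13.2%. Dhx15 itself had ratios of 0.388 in cluster 9, 0.354 in cluster 12, 0.395 in cluster 13, 0.506 (0.433 to 0.590) in cluster 14 and 0.629 (0.522 to 0.756) in cluster 18. Its RNA was less reduced in cluster 1 (0.730, 0.507 to 1.02) and cluster 3 (0.721, 0.529 to 0.961) than in clusters 9, 12 and 13. The intervals of clusters 1 and 3 overlapped those of clusters 14 and 18.

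**Figure D5:**
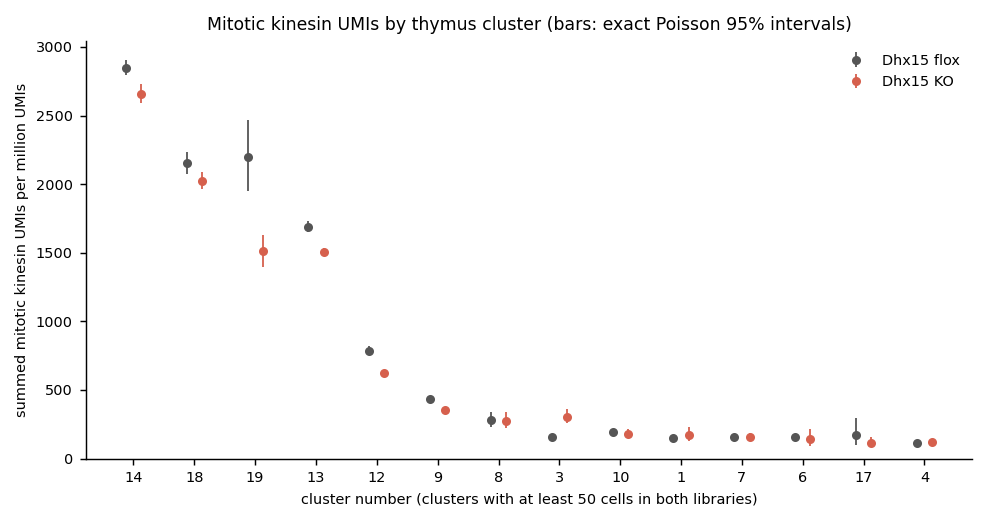
Summed mitotic kinesin UMIs in CPM in each thymus cluster with at least 50 cells in both libraries, ordered by level; points are the Dhx15 flox and Dhx15 KO libraries and bars exact Poisson 95% intervals. Clusters 14, 18, 13 and the unnamed cluster 19 hold the highest levels, and in clusters 9, 12, 13, 14, 18 and 19 the KO point lies below the flox point.

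Cenpe, Kif2c and Kif5b were looked at within clusters after their values were seen. Cenpe was lower in KO in clusters 9, 12, 13, 14 and 18: 294 and 207 CPM in cluster 13 (ratio 0.703, 0.653 to 0.756), 466 and 315 in cluster 18 (0.676, 0.603 to 0.757), 505 and 398 in cluster 14 (0.788), 88.2 and 53.0 in cluster 12 (0.601) and 72.7 and 61.6 in cluster 9 (0.847, 0.722 to 0.996). Of the 14 clusters with at least 50 cells in both libraries, however, only 6 had a Cenpe ratio below 1, and ratios ranged from 0.511 to 4.96. The resting double positive-like cluster 3 held 37.5 CPM in flox and 102.8 in KO (2.74, 1.94 to 3.80). Kif2c in cluster 13 was at 83.1 and 79.2 (0.954, 0.836 to 1.09). Kif5b, at 0.627 over the whole libraries, had ratios of 1.11 (0.943 to 1.30) in cluster 1, 1.03 (0.870 to 1.23) in cluster 4, 0.989 (0.862 to 1.13) in cluster 7, which was TCR-signalled-like, and 0.910 (0.833 to 0.995) in cluster 13. It was 0.860 (0.779 to 0.949) in cluster 9, 0.863 (0.783 to 0.953) in cluster 12, 0.891 (0.804 to 0.986) in cluster 14 and 0.929 (0.808 to 1.07) in cluster 18. Of the same 14 clusters, 10 had a Kif5b ratio below 1, and ratios ranged from 0.620, near the value over the whole libraries, to 1.11. Kif5b levels in flox differed between clusters, from 570 CPM in cluster 1 to 126 in cluster 4. Dhx15 RNA was less reduced in clusters 1 (0.730, 0.507 to 1.02) and 4 (0.855, 0.727 to 1.01) than in cluster 13 (0.395, 0.359 to 0.436). Whether this bears on the kinesin ratios of these clusters was not tested. How far the shift in cell classes accounts for the library-wide ratios was not tested beyond these values.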

How the data were processed

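Per the labels' protocols, CUTLL1 RNA-seq libraries were poly(A)+, RIP used DHX15 antibody or IgG, and droplets captured single thymocytes. Per the submitters' processing notes, which give no roles, the builds were mm10, hg38 and hg19. The same notes name Scanpy 1.7.1, Cell Ranger 6.0.2, DESeq, STAR (2.7.5c, 2.4.1.7), DESeq2 1.32.0 and FastQC 0.11.9. The sources used here do not state whether counting used strand.

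As deposited by the authors, values are RPKM for 19848 genes in the shRNA experiment and a normalised signal for 23037 genes in the ciclopirox experiment. In every library 100% of values were whole reads once scaled, within a tolerance of 0.01 reads. Normalised values are counts divided by 1 size factor per library. The log2 fold changes, p-values and scores deposited by the authors were not used. The peak list gives each peak's fold enrichment ratio, p-value and score as deposited by the authors. The header names no build: 4150 of 4499 peaks lay in GRCh38 gene spans, beside 2801 and 2771 after shifts of 1000000 bases. The thymus matrices hold UMI counts, made with Cell Ranger 6.0.1 per the file headers.

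Values were tested as log2(RPKM + 1) in a fit over all 9 libraries (15022 genes) and as log2(normalised count + 1) over 6 libraries (16825 genes) with limma 3.58.1 in R 4.3.3 (empirical Bayes with trend), two-sided, at a Benjamini-Hochberg adjusted p under 0.05 over all genes. Alternatives were other pseudocounts, no filter, median centring, other sets of libraries, a replicate block, edgeR 4.0.16 and DESeq2 1.42.0 on recovered reads, and leaving out each library. Scripts were tested on simulated data. Peaks were assigned by an overlap of at least 1 base on either strand. Thymus cells were clustered with Leiden (leidenalg 0.10.2) at a resolution of 1.0, and no barcodes were removed. The graph was built on 2000 variable genes without kinesins, 30 components and 15 neighbours (scikit-learn 1.9.0). Scrublet called 0 doublets in both libraries, which is taken as a failed call, so doublets remain. No column of per-sample values was left unused (0).

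The members, role groups and partner lists were chosen with earlier results of these data known. Named with values were DHX15, CENPE, KIFC1, every member with a peak or with opposite calls by the hairpins, per comparison up to 5 called rises and 5 called falls that were largest (mean of at least 1 RPKM or 100 normalised counts), the 2 partner genes per list that were called with the largest change, and the 5 highest and 5 lowest thymus ratios at 100 UMIs or more. Further members named in the text (KIF11, KIF1B, KIF2A, KIF3C, KIF4A, KIFC3 and those that did not pass a filter) were added after their values were seen.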

Additional observations from a re-analysis of the deposited data

Results flagged for a closer look

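Among the kinesin genes, 4 were called in opposite directions by the hairpins, and the contrast of shDHX15-2 with shDHX15-1 itself passed for each (limma). The log2 differences were -1.66 for CENPE, -1.07 for KIF20B, -0.73 for KIF13B and -0.28 for KIF2C (adjusted p = 4.99e-08, 4.00e-07, 7.19e-07 and 4.58e-06). All 3 shDHX15-2 libraries lay below all 3 shDHX15-1 libraries in each of the 4. The cause of the differences was not tested.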

How the results depend on the processing

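The counts of called kinesins stayed within 1.5 times the reported ones under every alternative run. With all libraries and KIF5A kept, they ranged from 22 to 24 for shDHX15-1, 23 to 28 for shDHX15-2, 23 to 27 for the mean of both hairpins, 22 to 24 for shDHX15-2 against shDHX15-1 and 20 to 23 for ciclopirox. Leaving out each library in turn gave 20 to 23, 23 to 25, 23 to 24, 21 to 22 and 16 to 24. The count of kinesin genes with a RIP peak was 2 of 28 when a fold of at least 2 was asked (4.74% of all genes), 8 of 28 with the peak wholly inside the gene (22.1%), and 6 of the 23 with a single listed strand, 26.1%, when strands were matched (23.7%). KIF21B and KIFC2 have no single listed strand and were not in the last comparison. The thymus ratio of summed mitotic kinesins was 0.996 with barcodes of at least 1000 UMIs and at most 10% mitochondrial UMIs, and 1.29 as a mean over cells of each cell's own share, which weights each cell equally. Alternatives chosen after seeing the data added Kif4 to that sum and left KIF5A out of the hairpin counts, which were then 22, 24, 22 and 21. The alternative without called doublets gave no value, since none were called.

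Same-numbered libraries deviated together weakly at most. Their correlations were -0.000609 to 0.0951 in the shRNA experiment and -0.108 to 0.163 in the drug experiment. Libraries with different numbers gave -0.123 to 0.0466 and -0.289 to 0.182, so the highest shRNA value was between same-numbered libraries. The labels name no pairing, and the numbers were not taken as pairs. With the replicate number as a block the counts were 22, 25, 23, 22 and 23, and none of 67 single-gene results changed its call.

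Of 853 single-gene values recomputed, 822 kept direction and call, 16 lost and 4 gained a call, and 11 changed sign. Every sign change was in a value that was not called. KIF7 with shDHX15-2 was -0.0250 with median centring, -0.00450 with edgeR, -0.0157 with DESeq2 and -0.0187 to 0.0433 with 1 library left out (-0.00194 without shGFP replicate 2). KIF18B in shDHX15-2 against shDHX15-1 was 0.0290 with median centring, 0.0310 with edgeR and 0.0272 with DESeq2. KIF2C with ciclopirox was -0.0481 with median centring and -0.0150 to 0.140 with 1 library left out (-0.0056 without DMSO replicate 2). Beyond the calls named above, the causes were not tested. The RPKM of KIF21A, KIF26B and KIFC3 was too low for the filter, and the thymus and RIP values have no replicates, which limits what they can show.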
